A study of Mus musculus with 7 samples.

Results

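Mitosis and cytokinesis genes encode the machinery that condenses, aligns, separates and divides the chromosomes and then splits the cell. The 48 genes described here were taken by name from a list of mitotic cyclins and kinases, kinetochore, spindle and cytokinesis genes. All 48 of them are among the 23337 genes measured, 1 of them (Knstrn) under its older name D2Ertd750e. Their levels were read in bone marrow-derived macrophages, obtained by culturing mouse marrow cells with the macrophage growth factor M-CSF. The mice were 6 to 8 weeks old and labelled male, and either lacked Tgm2 (KO), the gene of the protein-crosslinking enzyme transglutaminase 2, or were wild type (WT). The labels do not say how the Tgm2 allele was made.

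Every culture had M-CSF at 25 ng/ml for 7 days. The 4 groups were Tgm2 KO cells then treated with bacterial lipopolysaccharide (LPS) at 10 ng/ml for 6 hours (KO LPS, n = 2), WT cells given the same LPS (WT LPS, n = 2), untreated Tgm2 KO cells (KO M0, n = 1) and untreated WT cells (WT M0, n = 2). The tables give TPM, which are transcript abundances per unit of length that add up to 1000000 in each of the 7 libraries. How deeply each library was sequenced cannot be read from them. Whether replicates were separate animals or cultures is not labelled, so the tests rest on a spread between samples that may be technical.

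Most of these genes are transcribed in the G2 and M phases of the cell cycle and are little expressed in resting cells. Cyclin B with the kinase Cdk1 starts mitosis, the chromosomal passenger complex and the spindle checkpoint watch over the attachment of chromosomes to the spindle, and the anaphase-promoting complex ends mitosis by destroying securin and cyclin B. M-CSF is the main growth signal for cultured macrophages, and LPS is known to slow the division of macrophages driven by M-CSF.

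Tgm2 itself stood at 19.4 and 19.2 TPM in KO LPS, 233 and 199 TPM in WT LPS, 50.7 TPM in KO M0 and 433 and 368 TPM in WT M0, so every KO library was below every WT library. Both WT LPS libraries went against their male label in part. Xist, the X-inactivation RNA, had 47.2 and 55.4 TPM in the WT LPS libraries, while elsewhere it reached at most 0.00535 TPM, and the Y-linked gene Eif2s3y stood at 67.8 and 68.0 TPM in KO LPS and at 32.8 and 37.2 TPM in WT LPS. All 4 Y-linked genes looked at (Ddx3y, Eif2s3y, Kdm5d and Uty) were higher in KO LPS than in WT LPS. Each comparison with WT LPS carries this difference, and its part in the results was not tested. The KO M0 library lay closer to WT M0 replicate 2 (median absolute log2 difference over all genes 0.0959) than the WT M0 replicates lay to each other (0.221). Macrophage markers (8 of 8 genes detected in each library, led by Lyz2) summed to between 34223 and 50916 TPM. Markers of myeloid and stem progenitors (8 genes, among them Kit, Mpo and Elane) summed to between 0.891 and 2.69 TPM, and no progenitor, erythroid, B cell or mast cell marker reached a mean of 1 TPM.

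The mitosis genes were at much higher levels in KO LPS than in WT LPS, KO M0 and WT M0. Summed over the 48 genes, they made up 1288 and 1335 TPM in KO LPS, 278 and 315 TPM in WT LPS, 370 TPM in KO M0 and 318 and 302 TPM in WT M0. The 2 KO LPS libraries stood far above the other 5, which lay close to each other. The mean sum of KO LPS was 4.42 times that of WT LPS and 3.55 times that of KO M0, whereas the mean sum of WT LPS was 0.957 times that of WT M0. For 47 of the 48 genes both KO LPS libraries lay above all of the other 5 libraries, the exception being Cenpa. Among the 47 members with a mean of at least 1 TPM over the 7 libraries, which are the ones tested, 46 did so, against 13.4% of all 11096 genes tested. Of the 47, 5 (Ttk, Cenpf, Spc24, Kif4 and Fam83d) had a mean of at least 1 TPM through KO LPS alone, and among the other 42 the count was 41. In bulk libraries such as these, more cells in mitosis and more transcript per cell cannot be told apart.

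**Figure D1:**
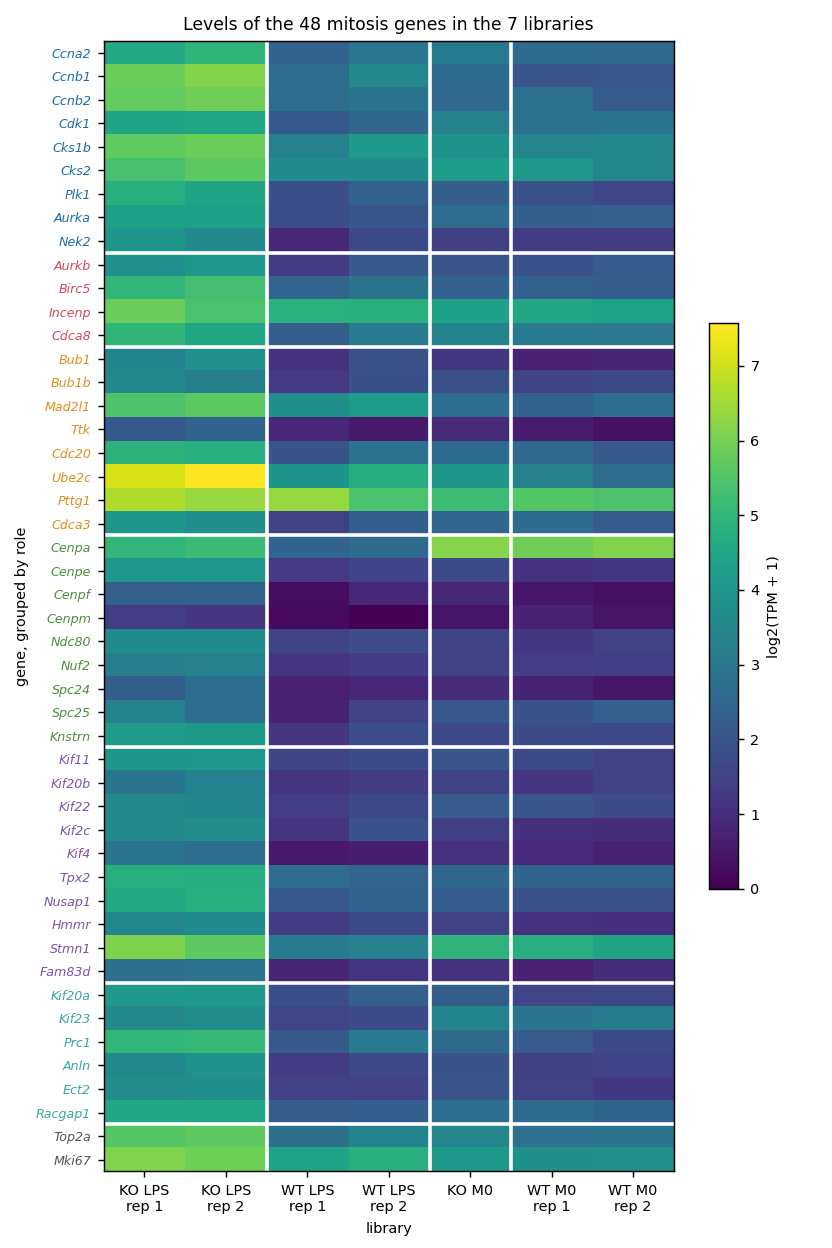
Levels of the 48 mitosis genes as log2(TPM + 1) (colour) in the 7 libraries (columns), with genes in rows grouped by role and coloured by it on the axis. Both KO LPS columns are brighter than the other 5 in every row except that of Cenpa, which is brightest in KO M0 and WT M0.

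KO LPS was highest in the sum of each role group, and the order of the other libraries differed between groups. The 9 mitotic cyclins and entry kinases summed to 306 and 339 TPM in KO LPS, 45.0 and 65.2 TPM in WT LPS, 69.1 TPM in KO M0 and 54.3 and 46.1 TPM in WT M0. The 6 cytokinesis genes summed to 103 and 107 TPM in KO LPS, 14.9 and 21.9 TPM in WT LPS, 30.2 TPM in KO M0 and 20.8 and 19.6 TPM in WT M0. In both groups the KO LPS libraries lay above the other 5. The 8 checkpoint and exit genes summed to 348 and 386 TPM in KO LPS, 117 and 99.5 TPM in WT LPS, 70.9 TPM in KO M0 and 73.1 and 64.0 TPM in WT M0, so the WT LPS sums lay above the untreated ones. Pttg1 alone had 82.2 and 41.3 TPM in WT LPS, 35.3 TPM in KO M0 and 46.8 and 42.8 TPM in WT M0. Of the 8 genes 3 were called higher and 0 lower in WT LPS than in WT M0 by limma, and 5 did not pass. The 10 spindle genes summed to 184 and 173 TPM in KO LPS, 25.4 and 30.3 TPM in WT LPS, 51.7 TPM in KO M0 and 43.1 and 37.1 TPM in WT M0, so the WT LPS sums lay below the untreated ones. Stmn1 alone had 7.83 and 8.78 TPM in WT LPS, 29.1 TPM in KO M0 and 25.9 and 20.5 TPM in WT M0. Of the 10 spindle genes 1, Stmn1, was called lower in WT LPS than in WT M0 by limma. For 6 of them the log2 fold change was above 0, so the low sum was not shared by the group. The 9 centromere and kinetochore genes summed to 101 and 104 TPM in KO LPS, 11.8 and 17.0 TPM in WT LPS, 85.8 TPM in KO M0 and 71.5 and 81.0 TPM in WT M0, so here the untreated libraries came close to KO LPS and WT LPS stood alone at the bottom. That pattern was carried by Cenpa, which alone had 72.5 TPM in KO M0. Without Cenpa the other 47 members summed to 1258 and 1300 TPM in KO LPS, 274 and 310 TPM in WT LPS, 297 TPM in KO M0 and 258 and 233 TPM in WT M0.

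**Figure D2:**
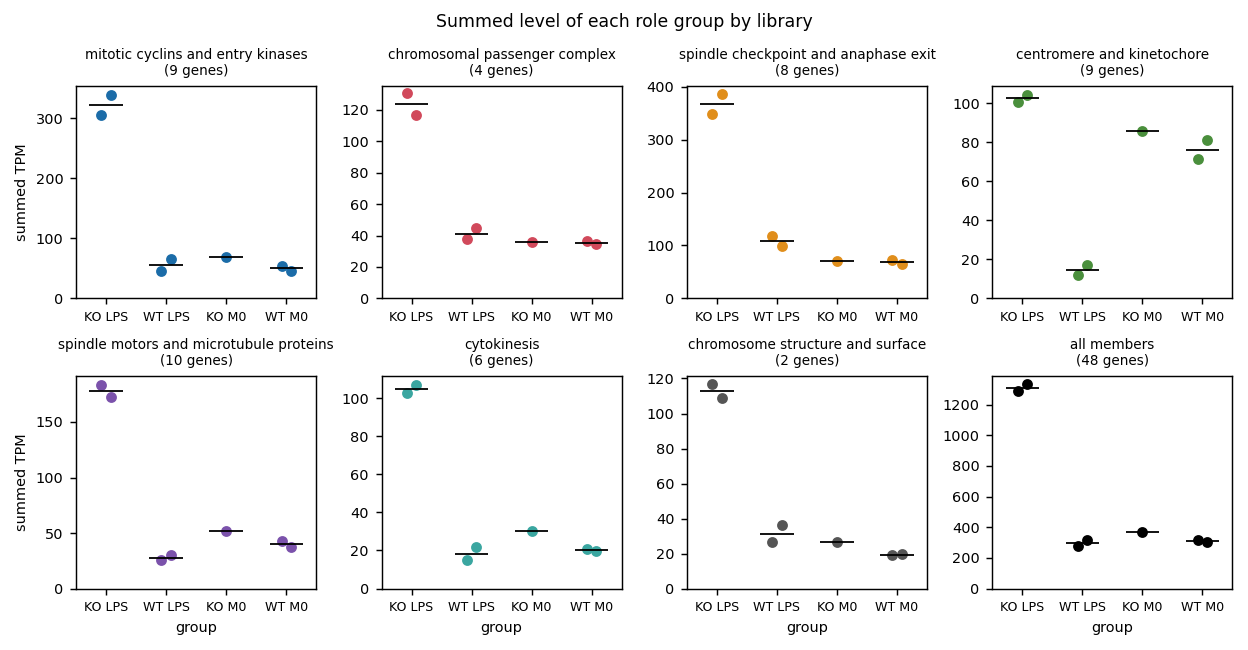
Summed TPM of each role group and of all 48 genes (vertical axes from 0) in the 4 groups, each point being 1 library and each line a group mean. KO LPS is highest in every panel, and in the centromere and kinetochore panel KO M0 (85.8 TPM) and WT M0 (71.5 and 81.0 TPM) come close to it.

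Genes of this kind are known to share promoter elements. The cell cycle genes homology region (CHR), written TTTGAA or TTTAAA, is bound by the MuvB core of the DREAM and MYB-MuvB complexes, and CCAAT boxes are bound by NF-Y. Promoter sequences from RefSeq (GRCm38.p6) covering 250 bases before to 50 bases after a gene start were matched for 41 of the 48 members. The other 7 are Ccna2, Aurkb, Incenp, Spc24, Tpx2, Stmn1 and Kif20a. For 31 of the 41 the end of the promoter sequence was found in a transcript of the gene. The promoter sequences of some members, among them Kif2c and Pttg1, lie within the annotated span of the gene. Whether the start used is the one active in these cells was not tested. Of the 41 promoters, searched on both strands, 32 (78.0%) held a CHR match, against 27.8% of all 27025 promoters in the same table. A CCAAT match was held by 31 (75.6%) against 37.9% of all promoters, and both kinds of match by 27 (65.9%) against 10.9%. The E2F letters TTTGGCGC or TTTCGCGC were held by 1 of the 41 (2.44%) and by 0.833% of all promoters. The 9 without a CHR match were those of Nuf2, Nek2, Knstrn, Nusap1, Bub1, Mad2l1, Pttg1, Cks2 and Cenpm. A match is a description of the letters and not evidence of a working site.

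Promoters of 4 members are shown because their genes bracket the expression patterns below. Those of Ccnb2, Ccnb1 and Cdc20 belong to genes that stood apart in KO LPS, and that of Cenpa to the gene that departed most from the rest. Each is written 5′ to 3′ in the direction of transcription, with CHR and CCAAT matches in capitals (ATTGG is CCAAT on the other strand). They lie at chr9:70421505-70421804 (minus strand) for Ccnb2, chr13:100786437-100786736 (minus strand) for Ccnb1, chr4:118437294-118437593 (minus strand) for Cdc20 and chr5:30666636-30666935 (plus strand) for Cenpa.
Ccnb2: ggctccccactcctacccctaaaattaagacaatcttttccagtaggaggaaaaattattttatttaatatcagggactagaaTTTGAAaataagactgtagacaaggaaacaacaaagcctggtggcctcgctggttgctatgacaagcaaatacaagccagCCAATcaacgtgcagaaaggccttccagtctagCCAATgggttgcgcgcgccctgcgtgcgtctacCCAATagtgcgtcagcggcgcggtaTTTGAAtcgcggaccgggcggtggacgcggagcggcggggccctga
Ccnb1: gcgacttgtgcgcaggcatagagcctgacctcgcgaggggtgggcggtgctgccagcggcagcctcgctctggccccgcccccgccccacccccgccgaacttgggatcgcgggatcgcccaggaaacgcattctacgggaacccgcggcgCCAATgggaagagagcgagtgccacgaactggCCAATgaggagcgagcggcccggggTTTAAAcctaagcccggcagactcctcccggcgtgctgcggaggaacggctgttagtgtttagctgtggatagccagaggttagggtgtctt
Cdc20: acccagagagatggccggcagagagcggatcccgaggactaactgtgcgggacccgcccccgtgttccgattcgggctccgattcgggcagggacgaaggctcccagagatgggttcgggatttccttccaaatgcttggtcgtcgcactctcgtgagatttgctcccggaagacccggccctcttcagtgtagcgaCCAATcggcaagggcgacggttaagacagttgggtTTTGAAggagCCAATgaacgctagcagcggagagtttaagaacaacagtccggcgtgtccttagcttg
Cenpa: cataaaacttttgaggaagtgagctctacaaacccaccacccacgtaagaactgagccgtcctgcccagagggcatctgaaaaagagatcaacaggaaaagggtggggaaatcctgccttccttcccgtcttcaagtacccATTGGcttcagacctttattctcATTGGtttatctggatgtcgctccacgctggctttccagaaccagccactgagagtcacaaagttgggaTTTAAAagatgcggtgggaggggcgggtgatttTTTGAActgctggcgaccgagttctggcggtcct

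The cyclin B2 promoter held 3 CCAAT matches that began 87, 54 and 21 bases before the start, and TTTGAA matches 167 bases before and 4 bases after it. The cyclin B1 promoter held CCAAT matches 99 and 67 bases before the start and a TTTAAA match 42 bases before it. In the Cdc20 promoter a TTTGAA match 18 bases before the start lay between CCAAT matches 53 and 8 bases before it. The Cenpa promoter held the same 2 kinds of match, with CCAAT on the other strand 109 and 86 bases before the start, TTTAAA 17 bases before and TTTGAA 16 bases after it. All 4 of these promoters thus held both kinds of match.

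Under LPS, KO macrophages had more mitotic transcript than WT macrophages across the whole list. Of the 47 tested members, 46 were higher and 0 lower in KO LPS than in WT LPS at a limma adjusted p under 0.05, against 4.59% of all tested genes called higher and 2.58% called lower. The median log2 fold change of TPM + 1 was 2.13 over the members, from 0.64 to 3.04, and 0.03 over all genes. All 48 members, Cenpm included, had both KO LPS libraries above both WT LPS libraries. The share of all tested genes in this order was not counted, so this count has no background beside it. Among the 42 that reach a mean of 1 TPM without KO LPS, 41 were higher. The log2(TPM + 1) scale understates changes of low genes, and the single KO M0 library, which enters the shared estimate of the spread, is given the same spread as the rest.

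All 9 mitotic cyclins and entry kinases were higher in KO LPS than in WT LPS, with log2 fold changes from 1.85 to 3.04 and a median of 2.37. Ccnb2 encodes cyclin B2, which activates Cdk1. It stood at 53.2 and 59.7 TPM in KO LPS, 5.49 and 6.48 TPM in WT LPS, 5.02 TPM in KO M0 and 6.16 and 3.59 TPM in WT M0. Both KO LPS libraries were thus far above 5 libraries that overlapped each other. The log2 fold change of Ccnb2 in KO LPS over WT LPS was 3.04 (standard error 0.23, adjusted p = 0.000106 by limma). A processed copy, Ccnb2-ps, exists, and how reads shared with it were assigned is not given in the sources used here.

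Cdk1, the kinase of mitotic entry, stood at 20.3 and 21.3 TPM in KO LPS, 3.41 and 4.63 TPM in WT LPS, 9.02 TPM in KO M0 and 6.15 and 6.72 TPM in WT M0. Unlike Ccnb2, it was lower in both WT LPS libraries than in the untreated ones. In KO LPS over WT LPS the log2 fold change was 2.13 (standard error 0.20, adjusted p = 0.000173 by limma). Aurka, the centrosome kinase Aurora A, stood at 18.9 and 18.3 TPM in KO LPS, 2.51 and 3.06 TPM in WT LPS, 5.53 TPM in KO M0 and 3.87 and 4.01 TPM in WT M0, a log2 fold change of 2.37 (standard error 0.20, adjusted p = 0.000142 by limma). Cks1b, a small subunit of Cdk complexes and the member of this group with the highest mean TPM over the libraries, stood at 51.7 and 57.4 TPM in KO LPS, 8.82 and 15.9 TPM in WT LPS, 13.8 TPM in KO M0 and 9.95 and 10.2 TPM in WT M0. The log2 fold change of Cks1b was 2.11 (standard error 0.24, adjusted p = 0.000573 by limma), and its WT LPS libraries overlapped the untreated ones. The remaining 5 were Ccnb1 (cyclin B1, 2.92), Nek2 (a centrosome kinase, 2.53), Plk1 (polo-like kinase, 2.50), Ccna2 (cyclin A2, 2.09) and Cks2 (1.85), all higher. Of the exon bases of Ccna2 12.5% overlap Exosc9 on the opposite strand.

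The chromosomal passenger complex, made of the kinase Aurora B and 3 partners that bring it to centromeres and the spindle midzone, was higher in KO LPS for 4 of 4 members. Birc5, survivin, stood at 30.8 and 38.9 TPM in KO LPS, 4.54 and 6.48 TPM in WT LPS, 3.98 TPM in KO M0 and 4.13 and 3.92 TPM in WT M0, a log2 fold change of 2.47 in KO LPS over WT LPS (standard error 0.22, adjusted p = 0.000159 by limma). Aurkb, Aurora B itself, stood at 13.3 and 15.4 TPM in KO LPS, 1.56 and 3.42 TPM in WT LPS, 2.98 TPM in KO M0 and 2.73 and 3.56 TPM in WT M0, a log2 fold change of 2.19 (standard error 0.27, adjusted p = 0.000810 by limma). For both genes the WT LPS libraries were close to the untreated ones and far from KO LPS. Aurkb has an annotated related copy, Gm5307. Cdca8, borealin, was higher by 1.99.

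Incenp, the scaffold of the complex, differed from its partners in level and in size of change. It stood at 56.7 and 41.3 TPM in KO LPS, 27.6 and 27.1 TPM in WT LPS, 19.3 TPM in KO M0 and 22.0 and 19.9 TPM in WT M0. Its KO LPS libraries were the highest, but its level elsewhere was several times those of Aurkb and Birc5. The log2 fold change of Incenp was 0.80 (standard error 0.19, adjusted p = 0.0314 by limma), the smallest of the 46 that passed. Over 16 alternatives its limma adjusted p ran from 0.0152 to 0.196. It did not pass without KO LPS replicate 1 (0.196), WT LPS replicate 1 (0.107), WT LPS replicate 2 (0.156), WT M0 replicate 1 (0.0531) or WT M0 replicate 2 (0.0506). Nor did it pass with median-ratio scaling (0.0533), with quantile normalization (0.0528), with no filter on low values (0.122) or at an adjusted p of 0.01.

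Of the 8 spindle checkpoint and anaphase exit genes, 7 were higher in KO LPS than in WT LPS, with a group median of 1.92. Ube2c, the ubiquitin-conjugating enzyme that works with the anaphase-promoting complex, had the highest level of any member in KO LPS, with 138 and 189 TPM there, 14.1 and 25.2 TPM in WT LPS, 15.2 TPM in KO M0 and 8.84 and 5.56 TPM in WT M0. WT LPS and KO M0 overlapped, and WT M0 was lowest. For Ube2c the log2 fold change was 3.03 (standard error 0.29, adjusted p = 0.000176 by limma). Of its exon bases 22.8% overlap Tnnc2 on the opposite strand, and whether reads were counted by strand is not given in the sources used here.

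Cdc20, the activator of the anaphase-promoting complex that the checkpoint holds back, stood at 28.8 and 25.7 TPM in KO LPS, 2.90 and 6.11 TPM in WT LPS, 5.29 TPM in KO M0 and 5.09 and 3.37 TPM in WT M0. The 5 libraries outside KO LPS overlapped, and the log2 fold change in KO LPS over WT LPS was 2.42 (standard error 0.29, adjusted p = 0.000632 by limma). The checkpoint kinases and their partners Bub1 (2.11), Bub1b (1.82), Ttk (1.55) and Mad2l1 (1.59), and Cdca3 (2.01), were also higher.

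Pttg1, securin, which holds the cohesin-cutting enzyme separase in check until anaphase, was the 1 tested member that did not pass. It stood at 99.9 and 83.0 TPM in KO LPS, 82.2 and 41.3 TPM in WT LPS, 35.3 TPM in KO M0 and 46.8 and 42.8 TPM in WT M0. Its WT LPS replicates lay far apart, 1 of them almost at the level of KO LPS and the other at that of the untreated cells. The log2 fold change was 0.64 (standard error 0.27, adjusted p = 0.223 by limma). Without WT LPS replicate 1 it was 1.12 (limma adjusted p = 0.0182), and over 16 alternatives it ran from 0.15 to 1.12.

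Centromere and kinetochore genes build the platform that ties chromosomes to spindle microtubules. All 8 tested ones were higher in KO LPS than in WT LPS, with log2 fold changes from 1.74 to 2.66. Cenpe, a kinetochore motor, stood at 15.4 and 15.5 TPM in KO LPS, 1.38 and 1.87 TPM in WT LPS, 2.21 TPM in KO M0 and 1.13 and 1.32 TPM in WT M0. Its log2 fold change was 2.66 (standard error 0.21, adjusted p = 0.000118 by limma), and its other 5 libraries lay between 1.13 and 2.21 TPM.

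Cenpa, the histone H3 variant that marks centromeres, had another pattern. It stood at 30.3 and 35.1 TPM in KO LPS, 4.38 and 5.29 TPM in WT LPS, 72.5 TPM in KO M0 and 60.5 and 69.2 TPM in WT M0. The untreated libraries were the highest, the KO LPS libraries intermediate and the WT LPS libraries lowest, with no overlap between those 3 sets. Its log2 fold change in KO LPS over WT LPS was 2.53 (standard error 0.18, adjusted p = 7.56e-05 by limma). Of its neighbours on chromosome 5, Mapre3 stood at 3.41 and 4.99 TPM in KO LPS, 4.36 and 7.47 TPM in WT LPS, 11.7 TPM in KO M0 and 10.6 and 11.9 TPM in WT M0, so it too was lower in the LPS libraries. Kcnk3 reached at most 0.0891 TPM and Dpysl5 at most 0.0225 TPM in any library, and no exon of another annotated gene overlaps Cenpa.

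Spc25, a subunit of the Ndc80 complex that grips microtubules, stood at 8.999 and 5.46 TPM in KO LPS, 0.700 and 1.74 TPM in WT LPS, 3.14 TPM in KO M0 and 2.85 and 3.96 TPM in WT M0. It shared with Cenpa that WT LPS was below the untreated libraries. For Spc25 the log2 fold change was 1.90 (standard error 0.30, adjusted p = 0.00346 by limma). The other subunits Ndc80 (2.01), Nuf2 (2.00) and Spc24 (1.74), and Knstrn (2.63) and Cenpf (1.82), were higher too. Cenpm, a subunit of the constitutive centromere network, had a mean under 1 TPM and was not tested, at 1.63 and 1.31 TPM in KO LPS, 0.165 TPM and listed at 0 in WT LPS, 0.353 TPM in KO M0 and 0.688 and 0.328 TPM in WT M0.

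All 10 spindle motors and microtubule proteins were higher in KO LPS than in WT LPS, with a narrow range of log2 fold changes from 1.85 to 2.68. Stmn1, stathmin, which destabilizes microtubules, stood at 67.6 and 50.5 TPM in KO LPS, 7.83 and 8.78 TPM in WT LPS, 29.1 TPM in KO M0 and 25.9 and 20.5 TPM in WT M0. Like Cenpa it had WT LPS below the untreated libraries, but unlike Cenpa it had KO LPS above them. Its log2 fold change was 2.68 (standard error 0.20, adjusted p = 0.000106 by limma), and it has an annotated related copy, Stmn1-rs2.

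Nusap1, which bundles spindle microtubules, stood at 23.4 and 26.5 TPM in KO LPS, 3.27 and 4.30 TPM in WT LPS, 3.61 TPM in KO M0 and 2.67 and 2.64 TPM in WT M0, a log2 fold change of 2.45 (standard error 0.20, adjusted p = 0.000143 by limma). The kinesins Kif11 (2.37), Kif4 (2.23), Kif2c (2.15), Kif22 (1.98) and Kif20b (1.88) were higher, as were the spindle assembly factor Tpx2 (2.15), the hyaluronan-mediated motility receptor Hmmr (2.08) and Fam83d (1.85). Of the exon bases of Kif4 15.1% overlap Pdzd11 on the opposite strand, and Kif22 has an annotated related copy, Kif22-ps.

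The 6 cytokinesis genes, which form the central spindle and drive the contractile ring, were all higher in KO LPS, within log2 fold changes of 1.98 to 2.37. Racgap1, which pairs with Kif23 in the centralspindlin complex, stood at 22.2 and 21.4 TPM in KO LPS, 3.72 and 3.84 TPM in WT LPS, 5.81 TPM in KO M0 and 5.21 and 4.46 TPM in WT M0, a log2 fold change of 2.25 (standard error 0.19, adjusted p = 0.000143 by limma). Ect2, the exchange factor that activates RhoA at the ring, stood at 12.2 and 12.6 TPM in KO LPS, 1.81 and 1.82 TPM in WT LPS, 2.95 TPM in KO M0 and 1.75 and 1.34 TPM in WT M0, a log2 fold change of 2.25 (standard error 0.21, adjusted p = 0.000159 by limma). For both genes the replicates of each LPS group nearly coincided.

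Kif23, the motor of centralspindlin, stood at 10.9 and 12.1 TPM in KO LPS, 1.99 and 2.29 TPM in WT LPS, 9.72 TPM in KO M0 and 6.63 and 7.71 TPM in WT M0. KO M0 was thus near KO LPS, WT M0 lay between KO LPS and WT LPS, and WT LPS was lowest. Its log2 fold change in KO LPS over WT LPS was 1.99 (standard error 0.20, adjusted p = 0.000228 by limma). Prc1, a bundler of antiparallel microtubules, stood at 30.9 and 31.8 TPM in KO LPS, 3.42 and 7.87 TPM in WT LPS, 5.16 TPM in KO M0 and 3.47 and 2.21 TPM in WT M0, a log2 fold change of 2.37 (standard error 0.31, adjusted p = 0.00110 by limma). Of the exon bases of Prc1 11.1% overlap Rccd1 on the opposite strand. Anln, anillin, was higher by 2.28, and the kinesin Kif20a by 1.98, although 29.3% of the exon bases of Kif20a overlap Cdc23 on the opposite strand.

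Top2a, the topoisomerase that untangles sister chromatids, stood at 47.04 and 50.4 TPM in KO LPS, 5.92 and 9.76 TPM in WT LPS, 10.3 TPM in KO M0 and 6.18 and 6.51 TPM in WT M0, a log2 fold change of 2.53 (standard error 0.23, adjusted p = 0.000159 by limma). Mki67, which coats mitotic chromosomes and is the usual marker of dividing cells, stood at 69.6 and 58.6 TPM in KO LPS, 20.6 and 26.5 TPM in WT LPS, 16.2 TPM in KO M0 and 12.9 and 13.2 TPM in WT M0. Its order was KO LPS, WT LPS, KO M0, WT M0 without overlap. The log2 fold change of Mki67 in KO LPS over WT LPS was 1.41 (standard error 0.19, adjusted p = 0.00128 by limma).

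**Figure D3:**
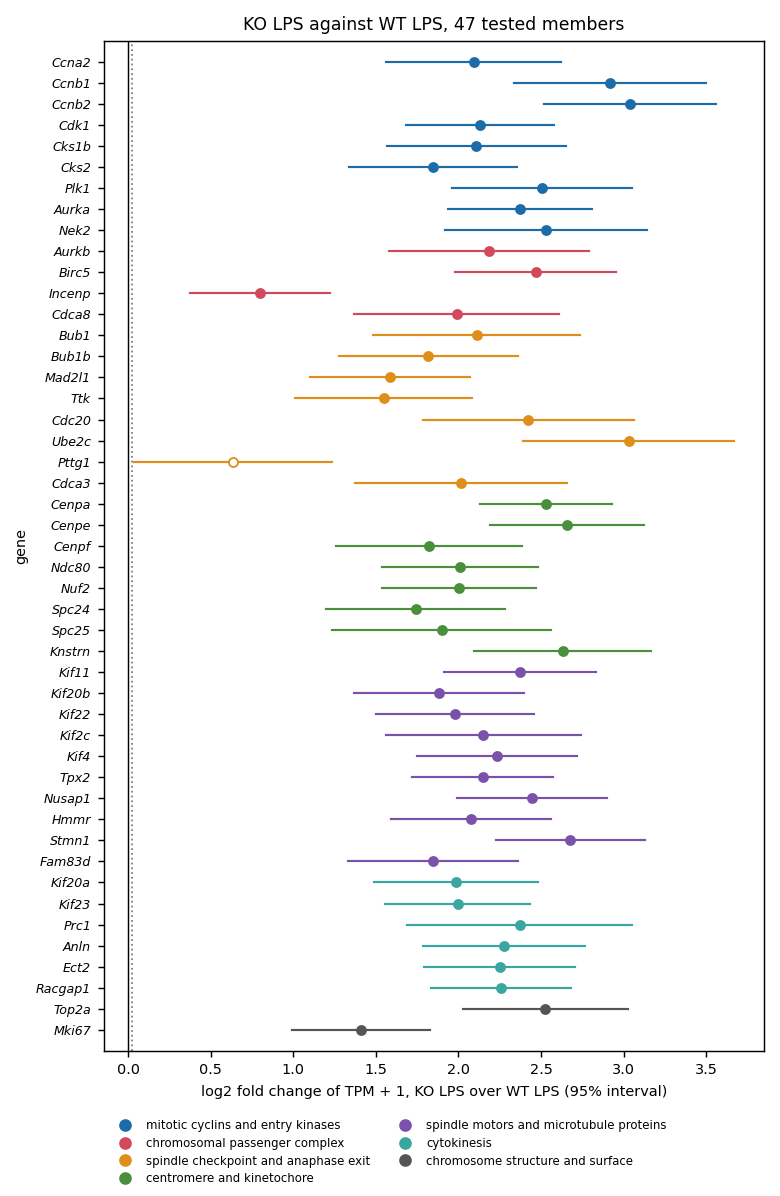
Log2 fold change of TPM + 1 in KO LPS over WT LPS (horizontal axis, with its 95% interval from limma) for the 47 tested members, coloured by role, with filled points where the adjusted p is under 0.05 and an open point where it is not. All 47 points lie right of 0 and of the median of all genes (dotted, 0.03), from 0.64 for Pttg1 (open) to 3.04 for Ccnb2.

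LPS treatment of KO cells came with higher levels of most of the list. Of 47 tested members 44 were higher and 1, Cenpa, was lower in KO LPS than in KO M0 by limma, against 13.8% of all tested genes called higher and 24.3% called lower. Among the 42 that reach a mean of 1 TPM without KO LPS, 39 were higher and 1 lower. The largest log2 fold changes were those of Ccnb1 (3.37, standard error 0.32, adjusted p = 2.05e-05 by limma), Ube2c (3.33, standard error 0.35, adjusted p = 4.26e-05 by limma) and Ccnb2 (3.25, standard error 0.29, adjusted p = 1.26e-05 by limma). Ccnb1 stood at 57.7 and 71.3 TPM in KO LPS and 5.28 TPM in KO M0. The members' median was 1.81 and that of all genes -0.24, a gap of 2.05 that was 2.02 with median-ratio scaling and 2.17 with quantile normalization. Fitting the other 5 libraries alone, with WT LPS left out, gave 45 higher and 1 lower.

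By role, all 9 cyclins and entry kinases, 4 passenger complex genes, 8 checkpoint and exit genes, 10 spindle genes and 2 chromosome genes were higher in KO LPS than in KO M0, as were 6 of 8 centromere and kinetochore genes and 5 of 6 cytokinesis genes. Pttg1, which did not pass between genotypes, was higher here by 1.34 (standard error 0.33, adjusted p = 0.00918 by limma). Cenpa fell by 1.13 on the log2 scale (standard error 0.22, adjusted p = 0.00249 by limma), to 30.3 and 35.1 TPM in KO LPS against 72.5 TPM in KO M0. Kif23 (0.22, standard error 0.24, adjusted p = 0.504 by limma) and Spc25 (0.96, standard error 0.36, adjusted p = 0.0616 by limma) did not pass. KO M0 is a single library, so no spread of its own stands behind these values.

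In WT cells the list did not move as a whole with LPS. Of 47 tested members 5 were higher, 5 were lower and 37 did not pass in WT LPS against WT M0 by limma, with 15.0% of all tested genes called higher and 29.6% called lower. The median was 0.15 over the members and -0.21 over all genes. The split of the members depended on scaling, with 11 higher and 4 lower under median-ratio scaling and 17 higher and 3 lower under quantile normalization. The split of all tested genes moved too. As deposited, 1665 of 11096 were higher and 3284 lower. Under median-ratio scaling 2489 of 11091 were higher and 2274 lower. Under quantile normalization 2251 of 11096 were higher and 2539 lower. The members' median stood above that of all genes by 0.36 as deposited, 0.23 with median-ratio scaling and 0.43 with quantile normalization. Leaving out 1 library moved the counts of the members, and those of all tested genes, as well. Without WT LPS replicate 1 there were 8 higher and 3 lower, without WT LPS replicate 2 there were 3 and 7, without WT M0 replicate 1 there were 3 and 4, and without WT M0 replicate 2 there were 4 and 3.

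The 5 that were lower in WT LPS included the gene with the largest change of the list. Cenpa fell by 3.50 on the log2 scale (standard error 0.18, adjusted p = 2.60e-07 by limma), to 4.38 and 5.29 TPM in WT LPS against 60.5 and 69.2 TPM in WT M0. Kif23 fell by 1.38 (standard error 0.20, adjusted p = 0.000283 by limma) and Stmn1 fell by 1.37 (standard error 0.20, adjusted p = 0.000348 by limma). These 3 remained lower in every alternative run for this comparison. Spc25 fell by 1.02 (standard error 0.30, adjusted p = 0.0178 by limma) and Cdk1 fell by 0.58 (standard error 0.20, adjusted p = 0.0388 by limma). Cdk1 passed when WT LPS replicate 2 or KO M0 was left out, and not when any of the other 5 libraries was or with either other scaling, and Spc25 did not pass without WT LPS replicate 1 or WT M0 replicate 2 or with quantile normalization.

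The 5 that were higher in WT LPS were Mad2l1, Ube2c, Ccnb1, Mki67 and Bub1. Mad2l1, the checkpoint protein that binds Cdc20, was one of 3 of them that fall outside the rule for full statistics, with Ccnb1 and Bub1, and these 3 were described after their values were seen. Mad2l1 had 12.6 and 17.3 TPM in WT LPS and 4.07 and 5.46 TPM in WT M0 (log2 fold change 1.46, standard error 0.22, adjusted p = 0.000363 by limma), and 42.9 and 49.9 TPM in KO LPS and 5.70 TPM in KO M0. Mad2l1 was therefore above its untreated level in all 4 LPS libraries. Ube2c was higher by 1.31 (standard error 0.29, adjusted p = 0.00405 by limma), Ccnb1 by 1.08 (standard error 0.26, adjusted p = 0.00699 by limma), Mki67 by 0.80 (standard error 0.19, adjusted p = 0.00591 by limma) and Bub1 by 0.76 (standard error 0.28, adjusted p = 0.0497 by limma). Bub1 did not pass without either KO LPS replicate, without WT LPS replicate 2 or without either WT M0 replicate, Ccnb1 did not pass without WT LPS replicate 2 or WT M0 replicate 1, and Mki67 did not pass without WT LPS replicate 2.

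The signed LPS change was more positive in KO than in WT cells. The difference of the 2 changes (KO LPS over KO M0, minus WT LPS over WT M0) was above 0 for all 47 tested members, with a median of 1.82 against -0.02 over all genes, and 25 were called higher and 0 lower by limma, against 0.847% of all genes called higher. Among the 42 that reach a mean of 1 TPM without KO LPS, 24 were called higher. All 47 had an unadjusted p under 0.05. The share of all tested genes under that unadjusted threshold was not counted, so neither this count nor that of a role group has a background. The largest difference was that of Ccnb2 (2.97, standard error 0.37, adjusted p = 0.00606 by limma), whose LPS change was 3.25 in KO and 0.28 in WT cells. Cenpa followed the same direction from below 0, with changes of -1.13 in KO and -3.50 in WT cells and a difference of 2.37 (standard error 0.28, adjusted p = 0.00554 by limma). Knstrn (2.68), Birc5 (2.48), Nek2 (2.44) and Stmn1 (2.35) came near to these.

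The called members were spread over the roles, with 6 of 9 cyclins and entry kinases, 2 of 4 passenger complex genes, 5 of 8 centromere and kinetochore genes, 7 of 10 spindle genes, 4 of 6 cytokinesis genes and 1 of 2 chromosome genes. None of the 8 checkpoint and exit genes was called by limma, although all 8 had an unadjusted p under 0.05 and their median difference was 1.59. Incenp had the smallest difference of the list (0.91, standard error 0.30, adjusted p = 0.256 by limma). The count of 25 was unstable, and calls over all tested genes also varied with the library left out. Over all tested genes 94 of 11096 were called higher in the main fit. With a pseudocount of 0.1 they numbered 54 of 11096, and with no filter 1 of 16164. The following counts are those of the members. Leaving out replicate 1 or replicate 2 gave 9 or 7 for KO LPS, 17 or 33 for WT LPS and 2 or 9 for WT M0, and the count was 10 with a pseudocount of 0.1 and 0 with no filter on low values.

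**Figure D4:**
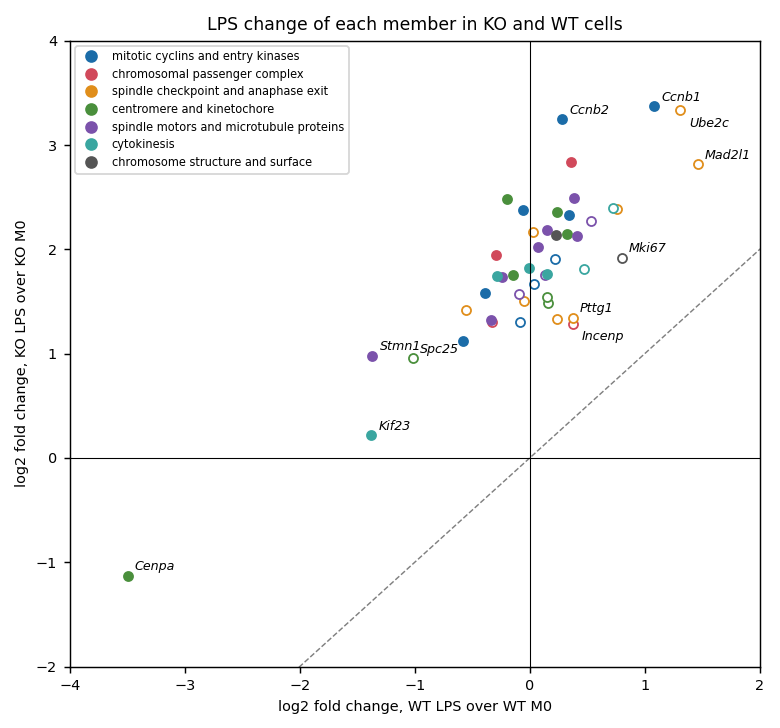
Log2 fold change with LPS in KO cells (KO LPS over KO M0, vertical axis) and in WT cells (WT LPS over WT M0, horizontal axis) for the 47 tested members, coloured by role, with filled points where the difference between the changes passed at an adjusted p under 0.05 and the dashed line marking equal change. All 47 points lie above the line, with Cenpa at -1.13 in KO and -3.50 in WT cells and Ccnb1 at 3.37 in KO and 1.08 in WT cells.

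Without LPS no member passed the test between genotypes. In KO M0 against WT M0, 0 of 47 tested members passed by limma, against 0.00901% of all genes called in either direction, and 4 had an unadjusted p under 0.05. Log2 fold changes ran from -0.34 for Pttg1 to 1.01 for Ube2c (standard error 0.35, adjusted p = 1.0 by limma), with a median of 0.33 over the members and 0.06 over all genes, and 41 of 47 were above 0. The KO M0 library was above both WT M0 libraries for 39 of the 47, whereas the same held for 36.2% of all tested genes. Ube2c stood at 15.2 TPM in KO M0 and 8.84 and 5.56 TPM in WT M0. With a single KO M0 library these differences have no replicate check. How many of all tested genes had an unadjusted p under 0.05 here was not counted, so the 4 members cannot be judged against it.

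Other cell cycle genes moved in part with the list. Of 63 tested genes on a second list of mitosis genes that shares none with the first, 46 were higher and 0 lower in KO LPS than in WT LPS, with a median log2 fold change of 1.59, where 4.59% of all tested genes were called higher and 2.58% lower. Ckap2l, a spindle protein, stood at 29.3 and 30.2 TPM in KO LPS, 3.46 and 4.64 TPM in WT LPS, 4.58 TPM in KO M0 and 2.99 and 2.89 TPM in WT M0 (log2 fold change 2.62 in KO LPS over WT LPS, limma adjusted p = 0.000106). Iqgap3 (2.53) and Tacc3 (2.02) were among them. In KO LPS against KO M0, 43 of the 63 were higher and 2 lower, against 13.8% and 24.3% of all genes. In WT LPS against WT M0, 2 were higher and 4 lower, against 15.0% and 29.6% of all genes. Several genes on this second list reached a mean of 1 TPM through KO LPS alone, among them Sgo2a, Depdc1a, Cdc25c, Knl1, Kntc1 and Parpbp. Sgo1, for example, had 2.64 and 3.03 TPM in KO LPS and at most 0.689 TPM in any other library. Such genes passed the filter because KO LPS was high, which favours higher calls in both comparisons with KO LPS. The counts for this and the following lists were not repeated without such genes, so how far they depend on them is not known.

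Genes of DNA replication and S phase were called higher in part, and their difference from the mitosis genes was not tested. Of 38 tested, 15 were higher and 0 lower in KO LPS than in WT LPS (median 0.62), with 4.59% of all genes higher and 2.58% lower. In KO LPS against KO M0, 6 were higher and 3 lower (median -0.04), with 13.8% and 24.3% of all genes. In WT LPS against WT M0, 1 was higher and 20 were lower (median -0.66), with 15.0% and 29.6% of all genes. Mcm10, which helps load the replication fork, stood at 13.9 and 14.3 TPM in KO LPS, 1.85 and 1.47 TPM in WT LPS, 0.539 TPM in KO M0 and 1.19 and 0.925 TPM in WT M0 (log2 fold change 2.51 in KO LPS over WT LPS, limma adjusted p = 0.000143). Mcm5, a subunit of the replicative helicase, stood at 13.9 and 12.3 TPM in KO LPS, 3.30 and 3.63 TPM in WT LPS, 5.52 TPM in KO M0 and 5.63 and 5.41 TPM in WT M0 (log2 fold change 1.66, limma adjusted p = 0.000600). Cdc45, its partner in the helicase, was higher by 1.61.

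Regulators of the cycle were mostly not called between the LPS groups, where 4.59% of all genes were higher and 2.58% lower. Of 21 tested transcriptional regulators, 2 were higher and 0 lower in KO LPS than in WT LPS, with a median of -0.01. Foxm1, the factor known for driving G2 and M phase genes, stood at 10.4 and 9.14 TPM in KO LPS, 2.17 and 2.08 TPM in WT LPS, 3.38 TPM in KO M0 and 2.40 and 3.21 TPM in WT M0, a log2 fold change of 1.78 (standard error 0.21, adjusted p = 0.000632 by limma). The other was Rbl1, the pocket protein p107, higher by 0.91 (standard error 0.23, adjusted p = 0.0400 by limma), and Lin9, a MuvB subunit, did not pass (0.88, limma adjusted p = 0.0693). Of 9 G1 cyclins and kinases Ccnd2 alone was higher (1.08, limma adjusted p = 0.0257), while Ccnd3 (0.47, limma adjusted p = 0.152) and Cdc25a (0.37, limma adjusted p = 0.289) did not pass. Of 18 inhibitors of the cycle 5 were higher and 1 lower, among them Pkmyt1, an inhibitory kinase of Cdk1 (1.98, limma adjusted p = 0.000806), Cdkn2c (1.65, limma adjusted p = 0.000615) and the antiproliferative gene Btg1 (-0.86, limma adjusted p = 0.0212). Of 16 anaphase-promoting complex genes 1 was higher, the ubiquitin-conjugating enzyme Ube2s (1.29, limma adjusted p = 0.00138).

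**Figure D5:**
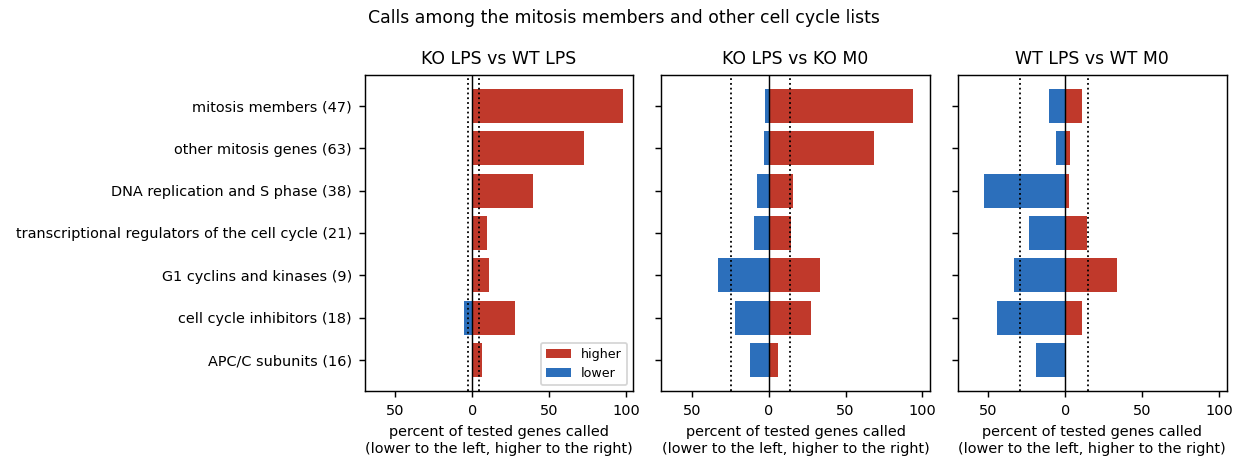
Percent of tested genes called higher (right of 0) and lower (left of 0) by limma for the mitosis members and 6 other cell cycle lists (rows, with the number tested) in 3 comparisons, with dotted lines for the percent of all tested genes called. Of the 47 members 46 were higher in KO LPS than in WT LPS, and of the 38 genes of DNA replication and S phase 20 were lower in WT LPS than in WT M0.

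Over all genes the median absolute log2 difference between replicates was 0.197 for KO LPS, 0.196 for WT LPS and 0.221 for WT M0. In WT LPS replicate 2 was above replicate 1 for 42 of the 48 members, with a median ratio of 1.36, while 65.9% of all tested genes had the same order. In KO LPS the ratio of replicate 1 to replicate 2 ran from 0.679 for Spc24 to 1.65 for Spc25, and 29 of the 48 members were higher in replicate 2. In WT M0 the same ratio ran from 0.630 for Fam83d to 2.10 for Cenpm with a median of 1.03, and 28 of the 48 were higher in replicate 1. The 6 members in the opposite order in WT LPS were Cks2, Incenp, Ttk, Pttg1, Cenpm and Tpx2.

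Markers of some other cell types differed between the LPS groups too. The 7 neutrophil markers summed to 155 and 218 TPM in KO LPS, 288 and 413 TPM in WT LPS, 22.0 TPM in KO M0 and 20.2 and 23.2 TPM in WT M0, most of it S100a8 in the LPS libraries. Of the 3 tested, S100a8 alone was lower in KO LPS than in WT LPS (-1.04, adjusted p = 0.0386 by limma), against 2.58% of all tested genes. Ngp, Ltf and Cxcr2 were listed at 0 in all 4 LPS libraries. The 9 stromal markers summed to 32.8 and 27.9 TPM in KO LPS, 22.0 and 23.8 TPM in WT LPS, 25.3 TPM in KO M0 and 32.3 and 45.1 TPM in WT M0. Of 5 tested, 3 (Col1a1, Pecam1 and Col1a2) were higher in KO LPS than in WT LPS, against 4.59% of all tested genes. Col1a1, the main fibroblast collagen, stood at 1.18 and 1.56 TPM in KO LPS, was listed at 0 in both WT LPS libraries and stood at 10.4 TPM in KO M0 and 13.2 and 18.6 TPM in WT M0. Col1a2 stood at 0.692 and 0.831 TPM in KO LPS and was listed at 0 in both WT LPS libraries. Untreated, it stood at 7.61 TPM in KO M0 and 11.3 and 14.1 TPM in WT M0. Pecam1 stood at 2.12 and 2.30 TPM in KO LPS and 0.585 and 0.333 TPM in WT LPS. Its untreated levels were 0.676 TPM in KO M0 and 0.846 and 0.761 TPM in WT M0. Pdgfrb, a receptor of pericytes and fibroblasts, stood at 27.7 and 19.9 TPM in KO LPS, 18.2 and 21.2 TPM in WT LPS, 1.93 TPM in KO M0 and 1.81 and 2.29 TPM in WT M0. Dcn, decorin, stood at 0.227 and 2.21 TPM in KO LPS, 2.71 and 2.04 TPM in WT LPS, 1.96 TPM in KO M0 and 2.82 and 4.73 TPM in WT M0. The stromal markers thus did not share 1 order of the groups. The part of these cells in the mitosis values was not tested.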

How the data were processed

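RNA sequencing was done on 7 libraries in 4 groups taken from the titles. The authors deposited TPM per gene, 23337 genes per library, each library summing to 1000000. Per the submitters' processing notes the genome build was mm10. Aligner, annotation, strandedness and the handling of multi-mapping reads: not given in the sources used here. Depth is unknown, so no counting interval can be given.

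The 11096 genes averaging 1 TPM or more were fitted as 4 group means on log2(TPM + 1) with limma 3.58.1 in R 4.3.3 (variance moderated along a mean trend, 3 residual and 7.3 prior degrees of freedom), with Benjamini-Hochberg adjustment over all tested genes and a threshold of 0.05. The steps were tested on simulated data. KO M0 has 1 library and borrows its spread from the rest. The 5 comparisons share libraries: KO LPS vs WT LPS uses those of both LPS comparisons.

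The members, role groups and lists were chosen with earlier results of these data known. Per-library values and full statistics are given for the 2 members of each role group with the smallest p and the 1 with the highest mean TPM, and for members that did not pass in KO LPS vs WT LPS, were lower in any comparison or were under the filter. Of the other cell cycle lists up to 3 genes with the smallest p are named. Cell type markers were named in part outside this rule, among them Pdgfrb and Dcn. Alternatives were median-ratio scaling, quantile normalization, a pseudocount of 0.1, no filter, a mean TPM of at least 5, an adjusted p of 0.01, the compared groups alone, a fit without both WT LPS libraries, each library left out and a replicate block. The same alternatives for members in the other comparisons, and a fit of the 6 numbered libraries without a block, were added after seeing the data. Coordinates and promoters are from RefSeq GRCm38.p6, exon overlaps from GENCODE. Figures were drawn with matplotlib 3.10.9.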

Additional observations from a re-analysis of the deposited data

Results flagged for a closer look

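The LPS change differed between genotypes, by the interaction term of the limma fit, for 25 of the 47 tested members, each with a positive difference. Of all tested genes 0.847% were called higher by the same term. Among the 42 members that reach a mean of 1 TPM without KO LPS, 24 were called. For the members given with full statistics the difference (log2 change in KO minus log2 change in WT) was 2.97 for Ccnb2, 2.48 for Birc5, 2.37 for Cenpa, 2.35 for Stmn1, 2.24 for Aurkb, 2.12 for Cenpe, 2.11 for Nusap1, 2.03 for Racgap1, 1.97 for Aurka, 1.91 for Top2a, 1.70 for Cdk1, 1.61 for Ect2 and 1.60 for Kif23. Cenpa, Kif23, Stmn1 and Cdk1 fell with LPS in WT cells. In KO cells Cenpa fell as well, Stmn1 and Cdk1 rose, and Kif23 did not pass. Ccnb2 and Birc5 rose in KO cells and did not pass in WT cells. All of these differences rest on the single KO M0 library and on WT LPS libraries that carry Xist.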

How the results depend on the processing

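In KO LPS vs WT LPS the count of members called higher was 46 in the main analysis and between 45 and 46 when any library was left out; with no filter it was 38 of 48, and with a mean TPM of at least 5 it was 29 of 30. In KO LPS vs KO M0 a mean TPM of at least 5 gave 28 of 30. In WT LPS vs WT M0 the count of higher members, 5, was 11 with median-ratio scaling, 17 with quantile normalization and 2 with no filter, and 3 to 8 with a library left out; the count of lower members, 5, was 3 with quantile normalization, with no filter and with an adjusted p of 0.01, and 3 to 7 with a library left out. The interaction count, 25, was 10 with a pseudocount of 0.1, 0 with no filter, 3 with an adjusted p of 0.01, and 2 to 33 with a library left out. Fewer members reach a mean of 5 TPM, and without a filter 16164 genes share the adjustment. The cause of the other shifts was not tested. Counts over all tested genes moved as well. In KO LPS vs WT LPS 509 were higher in the main analysis and 213 with no filter. Genes higher in WT LPS vs WT M0 numbered 1665 in the main analysis, 2489 with median-ratio scaling and 2251 with quantile normalization. For the interaction 94 were higher in the main analysis, 54 with a pseudocount of 0.1 and 1 with no filter. No called member changed direction in the alternatives run. The labels do not say whether replicate numbers pair the samples, and not every correlation passed 0.1: deviations of same-numbered libraries correlated at 0.181 between KO LPS and WT LPS, 0.298 between KO LPS and WT M0 and 0.0804 between WT LPS and WT M0. With a replicate block on the 6 numbered libraries 46 members were higher in KO LPS vs WT LPS and 5 higher and 5 lower in WT LPS vs WT M0, as without the block, while genes higher in KO LPS vs WT LPS numbered 714 with it and 515 without. No fit without KO M0 could give the comparisons that use it. Limits are the unknown depth, groups of 1 or 2 libraries, the single KO M0 library, and Xist in both WT LPS libraries.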
